A study of Mus musculus with 6 samples.

Results

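The unfolded protein response and the heat shock response are the programs by which a cell answers misfolded protein, the first in the endoplasmic reticulum (ER) and the second in the cytosol. Here 41 genes of both programs were followed in hippocampal astrocytes after ablation of microglia, out of 24421 genes measured. The genes were chosen by name, as known members of these programs, and all 41 were found in the deposited tables. RNA-seq was performed on 6 libraries, 3 from PBS-treated and 3 from DT-treated animals. All animals were Siglech dtr/dtr mice on the C57BL/6 background, which carry the receptor for diphtheria toxin at both copies of the Siglech locus, a gene of microglia; the PBS group carried the same alleles. PBS or DT at 50 µg/kg was given into the peritoneum 2 days before the hippocampus was taken from adult male mice. Each library came from a pool of 2 mice, and the 3 libraries of a group were described as independent experiments, so the p-values measure the spread between pools. Tissue was dissociated with enzymes under warming, cells carrying CD11b were removed, and astrocytes were taken with beads against astrocyte cell surface antigen-2.

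In the ER, the chaperone BiP (Hspa5) holds unfolded protein and restrains 3 sensors, IRE1 (Ern1), PERK (Eif2ak3) and ATF6. Once released, IRE1 splices the mRNA of the transcription factor Xbp1, ATF6 is cut to a transcription factor, and PERK slows translation while favouring that of Atf4, which drives Ddit3 (CHOP) and genes of amino acid supply. ATF6 and XBP1 act through the ER stress response element, and raise chaperones, disulfide isomerases and the machinery of ER-associated degradation. In the cytosol, HSF1 acts through the heat shock element and raises Hsp70, Hsp90 and their partners.

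Short stretches of the regulatory DNA are shown first because ATF6, XBP1 and HSF1 act through such elements. In RefSeq promoters of the GRCm38.p6 build, 33 of the 41 members had an entry, and the 250 bases before each listed start were searched on both strands. The ER stress response element, CCAATNNNNNNNNNCCACG, was found before 8 members and in 0.113% of 32851 promoters. The sites are given in the direction of the element with 5 bases on either side, and the capitals mark its CCAAT and CCACG ends. Hsp90b1 held 2 of them. The site of Hspa5 lies before its RefSeq start but within the GENCODE span of the gene, which begins at chr2:34771970.

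Hspa5 (chr2:34772020-34772048, plus-strand gene): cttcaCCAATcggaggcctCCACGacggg
Calr (chr8:84847070-84847098, minus-strand gene): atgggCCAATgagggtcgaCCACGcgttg
Hsp90b1, first site (chr10:86705633-86705661, minus-strand gene): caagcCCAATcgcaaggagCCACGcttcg
Hsp90b1, second site (chr10:86705528-86705556, minus-strand gene): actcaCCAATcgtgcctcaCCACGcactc
Canx (chr11:50325795-50325823, minus-strand gene): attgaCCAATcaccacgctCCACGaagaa
Pdia6 (chr12:17266486-17266514, plus-strand gene): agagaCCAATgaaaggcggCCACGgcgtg
Dnajc3 (chr14:118937822-118937850, plus-strand gene): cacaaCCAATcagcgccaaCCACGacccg
Creld2 (chr15:88819515-88819543, plus-strand gene): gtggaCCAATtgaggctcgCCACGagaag
Syvn1 (chr19:6046527-6046555, plus-strand gene): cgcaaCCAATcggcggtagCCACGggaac

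Other elements were rarer among the members. The second ER stress element, ATTGGNCCACG (0.0304% of promoters), was found before Herpud1, an ER membrane protein of degradation, at chr8:94386372-94386392 as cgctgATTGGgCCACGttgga, with its fixed letters in capitals. The core bound by XBP1 and ATF6, TGACGTG (1.65% of promoters), was found before Hspa5 at chr2:34771928-34771944 as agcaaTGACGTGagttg. The element of ATF4 with the letters TGATGCAA (0.791% of promoters) was found before Herpud1 and before Chac1. Of the 9 cytosolic heat shock genes, 5 had a promoter entry. Hspa8, Hsp90aa1, Hsp90ab1 and Hsf1, and likewise Cryab, Manf, Hyou1 and Atf6 of other classes, had none and were not searched. Among the members with an entry, the heat shock element GAANNTTCNNGAA (0.466% of promoters) was found only where Hspd1 and Hspe1 meet, 2 genes of opposite strands whose starts overlap. It lies before the start of Hspe1 and before 1 of the 2 listed starts of Hspd1, within the annotated span of Hspd1, at chr1:55088059-55088081 as ttctaGAAccTTCcgGAAggccc, and on the other strand overlapping it. A match in these letters is a description of the sequence and not evidence that a factor binds, and absence of a match says only that these letters are not in the window.

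Across the members, the expression of the ER chaperones, sensors and heat shock genes after DT was close to that after PBS. A single member, Pdia4, rose past the threshold of an adjusted p-value of 0.05 in limma, and 0 members were lower. Of the 41 genes, 40 had the mean of at least 0.5 CPM (reads scaled to a fixed library total) that was required for testing. Over all 15137 genes tested, 0.555% were higher and 0.159% lower at that threshold. At an unadjusted p-value under 0.05, 5 members were higher (5.91% of all genes) and 0 were lower (4.51% of all genes). The 3 DT libraries all exceeded the 3 PBS libraries for 7 members (17.5%, against 8.75% of all genes), and all stood below them for 1 member (against 7.57% of all genes). The point estimate was above 0 for 29 of 40 members (72.5%, against 48.7% of all genes). The median log2 fold change of DT over PBS was 0.07, with a range of -0.35 to 0.39, and the median over all genes was -0.01. For 34 of 40 members (85%) the 95% interval lay within 1.5-fold in either direction, which held for 66.6% of all genes. Members are abundant, however, and at a mean of at least 20 CPM the share was 91.9% for the members and 91.9% for all genes. The other shares still differed at that level. The point estimate was above 0 for 73.0% of the members and 43.5% of all genes. All DT libraries exceeded all PBS libraries for 18.9% of the members and 8.01% of all genes. In sum, the PBS libraries held 12675 ± 453 TPM of the members (SD, n = 3; TPM are transcripts scaled to a fixed library total and per length), and the DT libraries held 13334 ± 237 TPM (SD, n = 3), a ratio of 1.05.

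**Figure D1:**
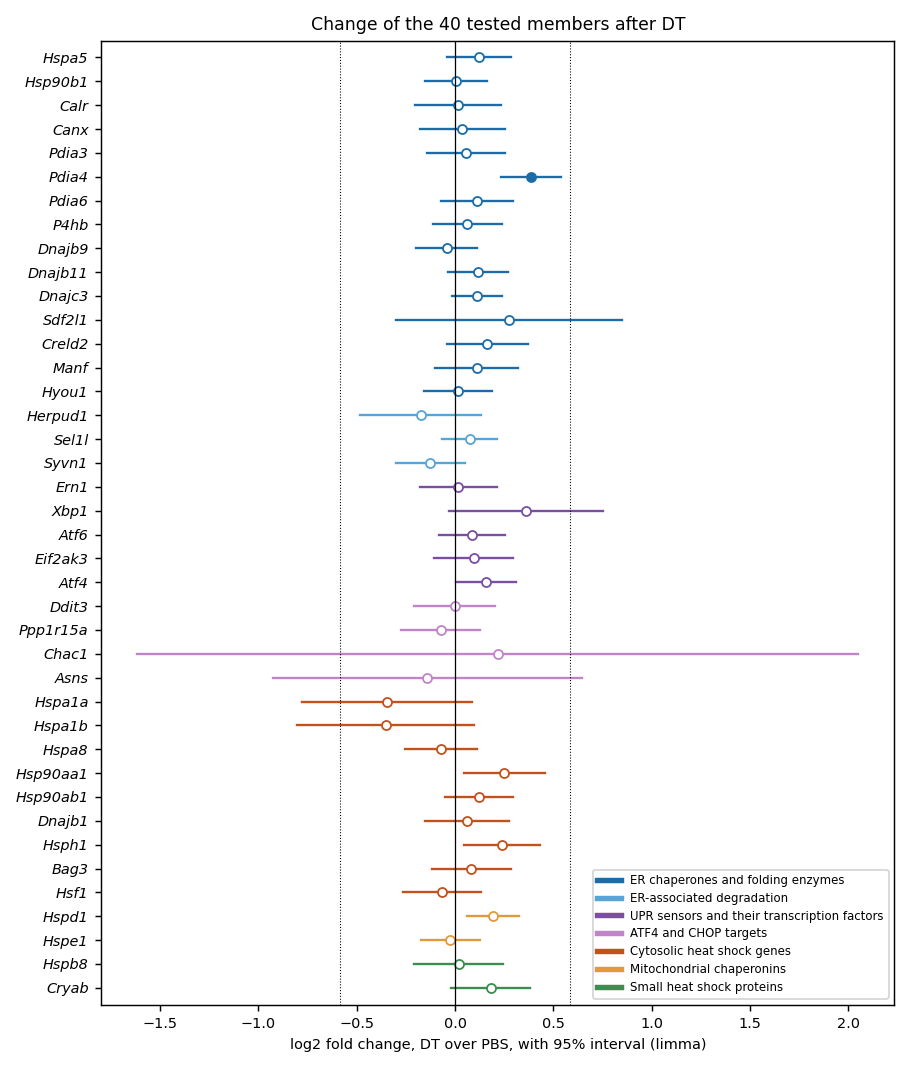
Log2 fold change (DT over PBS, x axis) of the 40 tested members (y axis, coloured by class), as points with 95% intervals from limma on log2(CPM + 0.1). Pdia4, the filled point, lies past the threshold at 0.39, and for 34 of the 40 members the interval stays between the dotted lines at 1.5-fold in either direction.

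Markers and depth bear on all of these values. The libraries held 21704891 to 32933975 reads in genes. The 15 astrocyte markers, which are high in each library, summed to 34423 ± 938 TPM in the PBS group and to 34450 ± 1242 TPM in the DT group (each SD, n = 3). The 14 microglia markers summed to 279 to 370 TPM after PBS and 151 to 171 TPM after DT, all 14 with a point estimate below 0, and Siglech, the locus of the toxin receptor, had 21 to 71 reads per PBS library and 0 reads in each DT library. The 8 choroid plexus markers ranged from 110 to 2037 TPM after PBS and from 1262 to 3447 TPM after DT, and the 6 ependymal markers from 414 to 546 TPM and from 562 to 977 TPM, with no overlap for the ependymal sum. The 7 markers of border-associated macrophages summed to 12.9 to 24.6 TPM after PBS and 57.5 to 77.6 TPM after DT, and 3 of the 6 tested were higher at an adjusted p-value under 0.05 in limma. Endothelial markers summed to 834 ± 217 and 606 ± 67.6 TPM, and those of oligodendrocyte precursors to 221 ± 22.2 and 173 ± 8.10 TPM, after PBS and DT (SD, n = 3). The part of any of these cells in the values of the members was not tested. In sorted bulk RNA, fewer cells of a type and less RNA per cell cannot be told apart.

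The levels of the members in PBS-treated animals, compared per transcript length as TPM, spanned the whole range of expression. The constitutive chaperone Hspa8 (Hsc70) was highest at 3260 ± 147 TPM (SD, n = 3), followed by Hsp90ab1 (1682 ± 99.1 TPM), Calr (1219 ± 117 TPM) and Hsp90aa1 (1112 ± 43.5 TPM). The means of Calr and Hsp90aa1 lay within the spread of Calr, while each other step of this order exceeded the SD. A further 16 members were between 100 and 1000 TPM, 18 between 10 and 100 TPM, and 3 under 10 TPM. Those 3, Asns, Chac1 and Trib3, are targets of ATF4. Trib3, a pseudokinase induced in ER stress, had 0 to 12 reads per library and was not tested.

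**Figure D2:**
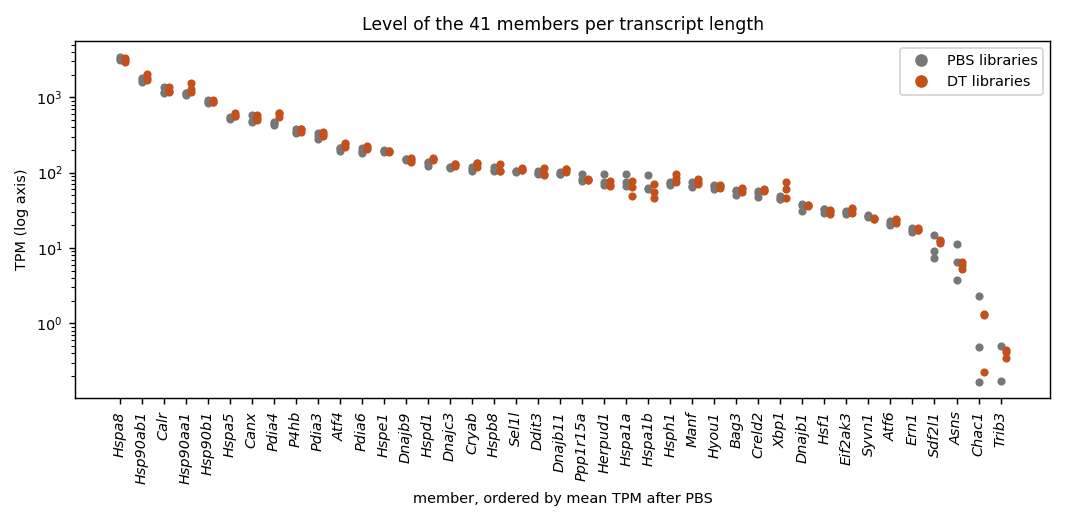
TPM (y axis, log scale) of the 41 members (x axis, ordered by their mean after PBS) in each library, with PBS in grey and DT in orange. Hspa8 stands at the top and the ATF4 targets Asns, Chac1 and Trib3 at the bottom; a library listed at 0 (Trib3 in PBS replicate 1) has no point on the log axis.

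Chaperones and folding enzymes of the ER formed the largest class. Pdia4 (ERp72), a disulfide isomerase of the ER lumen, lies on the minus strand of chromosome 6 (chr6:47796141-47813430, mm10). It stood at 374, 375 and 391 CPM in the PBS libraries and at 528, 457 and 508 CPM in the DT libraries. All DT libraries were above all PBS libraries, and DT replicate 2 was the nearest. The difference was 0.39 on the log2 scale (standard error 0.066, 95% interval 0.24 to 0.54), a fold of 1.31 (adjusted p = 0.0453, limma). Per length, Pdia4 rose from 449 ± 14.5 to 592 ± 33.1 TPM (SD, n = 3). The call lies near the threshold: it was lost when any 1 of the 6 libraries was left out (adjusted p between 0.0561 and 0.158, limma), without the filter on low values (0.0699), without the variance trend (0.227) and in the quasi-likelihood test of edgeR on recovered reads (0.0516). The fold change kept its direction in all 18 alternatives, between 0.34 and 0.45 on the log2 scale.

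The level of Pdia4 was set beside that of the choroid plexus markers, whose sums were 390, 2037 and 110 TPM in the PBS libraries and 3447, 2344 and 1262 TPM in the DT libraries. The means were 845 TPM after PBS and 2351 TPM after DT, and the sums overlapped between the groups. PBS replicate 2 exceeded DT replicate 3 in these markers, while Pdia4 was at 375 and 508 CPM there. Ependymal and border-associated macrophage sums had every DT library above every PBS library, as Pdia4 did. Those of microglia, oligodendrocytes and oligodendrocyte precursors had every DT library below. The part of any of these cells in the rise of Pdia4 was not tested. The promoter of Pdia4 is shown because it is the member that passed the threshold. The 250 bases before its listed RefSeq start (chr6:47813513-47813762, minus strand, written in the direction of the gene) held none of the 5 elements searched. That start lies upstream of the GENCODE start of the gene, and the bases between these starts were not searched. Capitals mark the CCAAT pentamer on either strand, present 3 times, while its partner CCACG was present 0 times.

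Pdia4: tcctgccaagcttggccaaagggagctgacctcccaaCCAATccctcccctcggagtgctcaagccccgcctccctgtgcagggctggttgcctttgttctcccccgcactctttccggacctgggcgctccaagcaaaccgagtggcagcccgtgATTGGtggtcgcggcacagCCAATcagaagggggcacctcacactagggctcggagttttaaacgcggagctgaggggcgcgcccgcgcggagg

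Among the other ER chaperones, groups did not overlap for 3 genes, each with a change that did not pass the test. Hspa5 (BiP), the Hsp70 of the ER, was at 473, 439 and 479 CPM after PBS and at 552, 480 and 483 CPM after DT. Replicates 2 and 3 of DT lay just above the highest PBS library, and the log2 fold change was 0.12 (95% interval -0.04 to 0.29; adjusted p = 0.612, limma). A rise of BiP of more than about 1.22-fold lies outside that interval. Dnajc3 (p58IPK), a co-chaperone of BiP, was at 209, 207 and 208 CPM after PBS and at 233, 213 and 229 CPM after DT. Its log2 fold change was 0.11 (adjusted p = 0.533, limma). Creld2, a folding factor secreted under ER stress, was at 22.4, 24.4 and 26.2 CPM after PBS and at 27.9, 27.2 and 26.5 CPM after DT. The lowest DT library exceeded the highest PBS library by little, and the log2 fold change was 0.17 (adjusted p = 0.570, limma).

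The remaining 11 genes of the class overlapped between the groups. These were the Hsp90 of the ER (Hsp90b1, log2 fold change 0.01), the lectin chaperones Calr (0.02) and Canx (0.04), the disulfide isomerases Pdia3 (0.06), Pdia6 (0.11) and P4hb (0.06), the co-chaperones Dnajb9 (-0.04), Dnajb11 (0.12) and Sdf2l1 (0.27), the secreted factor Manf (0.11) and the nucleotide exchange factor Hyou1 (0.01). In the class as a whole, 14 of 15 point estimates were above 0 with a median log2 fold change of 0.11 (0.04 without DT replicate 1 and 0.05 without PBS replicate 2), and 1 gene passed the test. The class also varied from library to library within a group. DT replicate 1 was the highest library for 12 of the 15 genes and PBS replicate 2 the lowest for 10. The class median of log2 CPM relative to the PBS mean was 0.00, -0.09 and 0.10 in the PBS libraries and 0.19, 0.05 and 0.05 in the DT libraries, so 2 DT libraries lay below PBS replicate 3. Chaperones with and without the ER stress response element overlapped in their changes. For the 7 chaperones that hold it the log2 fold changes had a median of 0.11 and a range of 0.01 to 0.17, and the 6 with a listed promoter and no such element, Pdia4 among them, had a median of 0.09 and a range of -0.04 to 0.39.

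**Figure D3:**
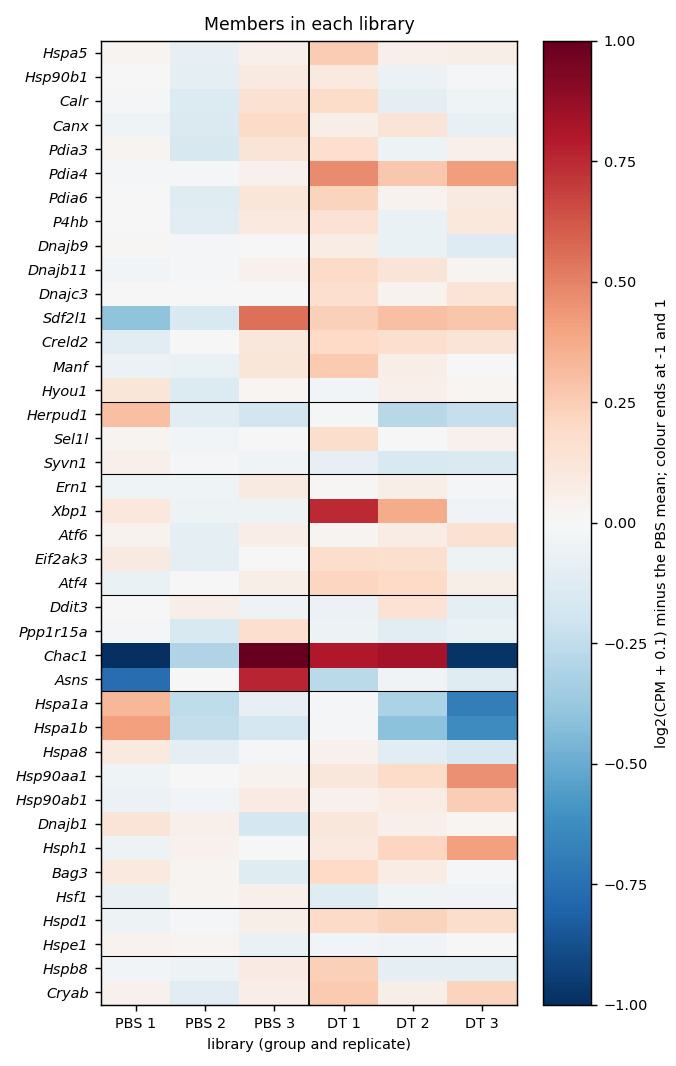
Log2(CPM + 0.1) of the 40 tested members (rows, grouped by class between horizontal lines) in each library (columns), as the difference from the mean of the PBS libraries, with colours ending at -1 and 1. DT replicate 1 is the highest library for 12 of the 15 ER chaperones in the top block, and Pdia4 is the row with all 3 DT libraries well above PBS.

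Genes of ER-associated degradation had a median log2 fold change of -0.13, which was -0.02 without PBS replicate 1. Syvn1 (HRD1), the ubiquitin ligase of this pathway, was the member with DT below PBS in every library, at 32.6, 31.2 and 30.5 CPM after PBS and at 29.7, 28.3 and 28.5 CPM after DT. Its log2 fold change was -0.13 (adjusted p = 0.621, limma). Its partner Sel1l had a log2 fold change of 0.07 and Herpud1 of -0.18, and both overlapped between the groups. Syvn1 carries the same element as Hspa5 before its start, with a point estimate of the other sign.

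All 5 genes of the sensors and their transcription factors had point estimates above 0, and none passed the test. Atf4, the factor downstream of PERK, had the smallest unadjusted p-value of this class. It stood at 117, 123 and 127 CPM after PBS and at 142, 140 and 127 CPM after DT. DT replicate 3 lay just under PBS replicate 3, and the log2 fold change was 0.16 (adjusted p = 0.472, limma). Since ATF4 is mostly controlled at translation and XBP1 at splicing, gene-level RNA gives no measure of either activity.

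Xbp1 had the widest range among abundant members of this class, at 37.7, 33.7 and 33.8 CPM after PBS and 58.7, 45.3 and 34.2 CPM after DT. DT replicate 3 lay among the PBS libraries, and the log2 fold change was 0.36 (95% interval -0.03 to 0.75; adjusted p = 0.514, limma). The order of the DT libraries was that of the summed choroid plexus markers. PBS replicate 2, with 2037 TPM of those markers, had 33.7 CPM of Xbp1. Astrocyte markers (35874, 33879 and 33595 TPM in the DT libraries) and oligodendrocyte markers (518, 510 and 424 TPM) also summed in this DT order. The other marker sums did not. The part of any of these cells in the values of Xbp1 was not tested. The log2 fold changes of the sensors were 0.02 for Ern1, 0.09 for Eif2ak3 and 0.09 for Atf6.

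Of the targets of ATF4 and CHOP, 0 passed the threshold in limma, with 1 of 4 tested genes above 0 and a median log2 fold change of -0.04, which was 0.13 without PBS replicate 3. Ddit3 (CHOP), a factor linked to cell death under lasting ER stress, was at 29.5, 30.8 and 28.7 CPM after PBS and at 28.4, 32.8 and 27.8 CPM after DT. Its groups overlapped, with a log2 fold change of 0.00 and a 95% interval of -0.21 to 0.20. Ppp1r15a (GADD34), which restores translation, was at 66.6, 60.5 and 75.9 CPM after PBS and at 65.1, 62.6 and 64.5 CPM after DT. Its log2 fold change was -0.07 (adjusted p = 0.821, limma), and it was 0.01 without PBS replicate 3, the library where Ppp1r15a was highest. The immediate early genes, which respond to tissue handling, also summed highest in that library, at 1451 TPM against 942 to 1061 TPM in the other 5. Asparagine synthetase (Asns) was at 2.49, 4.28 and 7.35 CPM after PBS and at 3.54, 4.19 and 3.93 CPM after DT, so the PBS libraries spread more widely than the DT libraries; the log2 fold change was -0.14, and 0.24 without PBS replicate 3. Chac1, which degrades glutathione, had 2 to 27 reads per library, a range already spanned by the PBS libraries. Its 95% interval ran from 0.33-fold to 4.15-fold, so a change within that range could not be resolved.

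Cytosolic heat shock genes had estimates of either sign, with 5 of 9 above 0, a median log2 fold change of 0.06 (-0.03 without PBS replicate 3) and 0 genes past the threshold in limma. Hsp90aa1, the inducible Hsp90, was at 1053, 1087 and 1107 CPM after PBS and at 1170, 1229 and 1486 CPM after DT. The groups did not overlap, DT replicate 3 was highest, and the log2 fold change was 0.25 (95% interval 0.05 to 0.46; adjusted p = 0.391, limma). Hsph1 (Hsp110), the exchange factor of Hsp70, was at 82.5, 88.2 and 85.7 CPM after PBS and at 91.5, 99.1 and 113 CPM after DT. It had the same order of DT libraries as Hsp90aa1, and a difference of 0.24 on the log2 scale (adjusted p = 0.380, limma). Neuron markers, summed, followed that order too, at 380, 631 and 740 TPM in the DT libraries and 454, 565 and 598 TPM in the PBS libraries. Ependymal markers did as well, at 562, 616 and 977 TPM after DT and 414, 546 and 520 TPM after PBS. The sums of pericyte, endothelial, oligodendrocyte precursor and immediate early genes also had this DT order. Those of astrocytes, microglia, border-associated macrophages, oligodendrocytes and choroid plexus did not. The part of RNA from any of these cells in the values of both genes was not tested.

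The inducible Hsp70 genes Hspa1a and Hspa1b had point estimates of the other sign. Hspa1a was at 94.6, 62.8 and 70.8 CPM after PBS and at 73.9, 60.0 and 46.2 CPM after DT. The groups overlapped, and the log2 fold change was -0.34 (95% interval -0.78 to 0.09; adjusted p = 0.577, limma). Hspa1b had a log2 fold change of -0.35 and the same libraries at the top and bottom. The 2 genes, neighbours on chromosome 17, share 39.7% and 40.5% of their 150-base transcript windows with other genes, each other included, so the split of reads between them is uncertain. The remaining genes of this class, Hspa8 (-0.07), Hsp90ab1 (0.12), Dnajb1 (0.06), Bag3 (0.08) and Hsf1 (-0.07), overlapped between the groups. Hspa8 and Hsp90aa1 share 55.4% and 36.2% of such windows with pseudogenes. Without Hspa1a, Hspa1b, Hspa8, Hsp90aa1 and Hsp90ab1, the DT over PBS ratio of summed TPM was 1.09 for the cytosolic class, against 1.04 with them. Of these, Hsp90ab1 shares 0% of such windows but was left out with its family. The remaining 4 genes held 195 TPM after PBS, against 6401 TPM for all 9, so the ratio of 1.09 describes a small part of the class.

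The mitochondrial chaperonins Hspd1 (Hsp60) and Hspe1 (Hsp10) build 1 folding chamber and meet at their starts on chromosome 1, where the heat shock element shown above lies. Hspd1 was at 101, 103 and 109 CPM after PBS and at 119, 121 and 118 CPM after DT. The groups did not overlap, and the log2 fold change was 0.20 (95% interval 0.06 to 0.33; adjusted p = 0.288, limma). Hspe1 was at 52.3, 52.0 and 48.6 CPM after PBS and at 50.1, 49.7 and 50.7 CPM after DT, with a log2 fold change of -0.02 (95% interval -0.17 to 0.13), and its groups overlapped. The difference between the 2 genes was not tested; 18.6% of the windows of Hspd1 are shared with a pseudogene and 14.1% of those of Hspe1 with another annotated gene.

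Of the small heat shock proteins, Cryab (alpha B-crystallin) was at 37.6, 33.7 and 38.2 CPM after PBS and at 43.6, 38.0 and 42.5 CPM after DT. DT replicate 2 lay among the PBS libraries, and the log2 fold change was 0.18 (adjusted p = 0.523, limma). Oligodendrocytes also express Cryab, and their 10 markers summed to 519 to 627 TPM after PBS and 424 to 518 TPM after DT; their part in the values of Cryab was not tested. Hspb8, which works with Bag3 in selective autophagy, had a log2 fold change of 0.02.

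**Figure D4:**
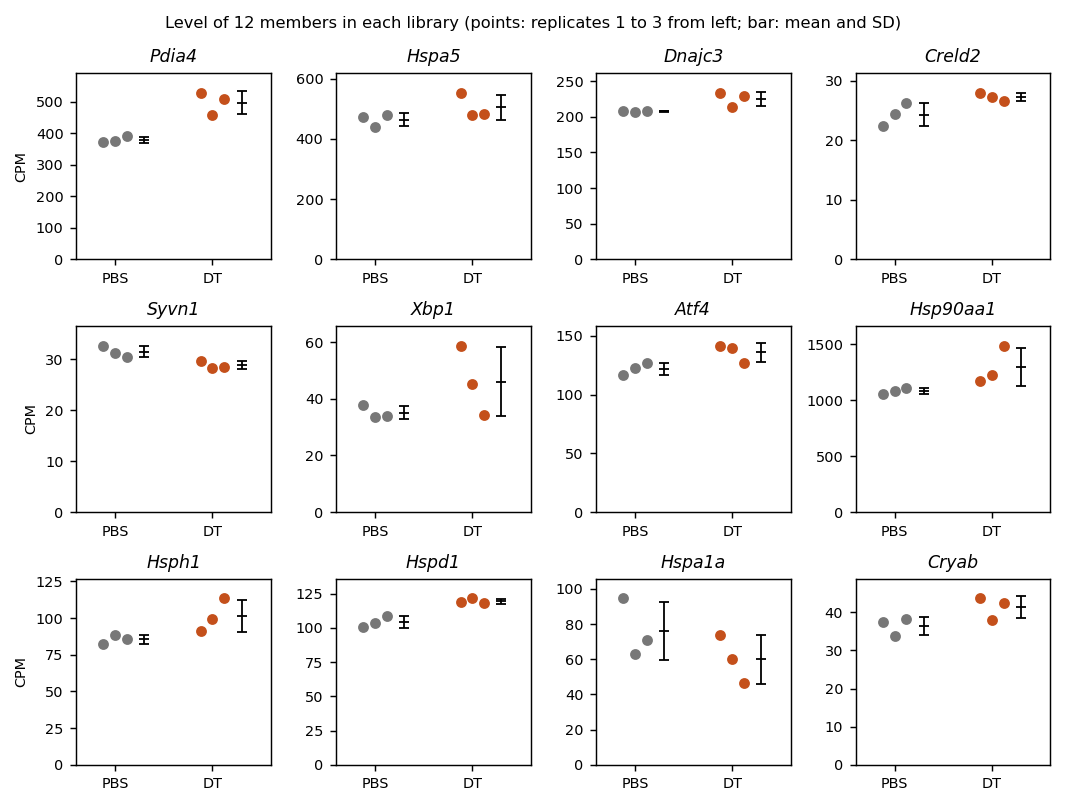
CPM (y axis, from 0) of 12 members in each PBS (grey) and DT (orange) library, with the mean and SD beside them. Pdia4, Hspa5, Dnajc3, Creld2, Hsp90aa1, Hsph1 and Hspd1 have all DT libraries above all PBS libraries, Syvn1 has them below, and Xbp1, Atf4, Hspa1a and Cryab overlap.

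Other genes of the same pathways were then examined, 131 tested of 138 found. Of these, 2 were higher (0.555% of all genes) and 0 were lower (0.159% of all genes) at the adjusted threshold in limma. The median log2 fold change was 0.03. At an unadjusted p-value under 0.05, 7 were higher and 5 were lower, near the shares of 5.91% and 4.51% over all genes. Wfs1 (wolframin), an ER membrane protein that restrains ATF6 and takes part in ER calcium handling, rose with the smallest p-value. It was at 49.0, 45.5 and 43.2 CPM after PBS and at 85.7, 87.3 and 79.8 CPM after DT. The groups lay far apart, the log2 fold change was 0.88 (standard error 0.074), and the call held in all 18 alternatives (adjusted p = 0.00115, limma). Hspb6 (Hsp20), a small heat shock protein, rose from 8.01, 6.99 and 5.79 CPM to 14.2, 13.6 and 13.7 CPM. On the log2 scale the difference was 0.998, with a standard error of 0.14 (adjusted p = 0.0223, limma), and 13 of 18 alternatives kept the call. It was lost without PBS replicate 2 (adjusted p = 0.0723, limma), without DT replicate 1, 2 or 3 (0.1, 0.113 and 0.0747) and without the variance trend (0.0726). The part of other cells in the values of Wfs1 and Hspb6 was not tested.

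Further genes of these lists with small unadjusted p-values did not pass the adjusted test. Those with higher estimates were the co-chaperone Dnajb5 (log2 fold change 0.27), the enzyme of proline synthesis Aldh18a1 (0.45) and the glycyl-tRNA synthetase Gars (0.20). Those with lower estimates were the stress factor Atf3 (-0.52), the cysteine-forming enzyme Cth (-0.43), the angiogenic factor Vegfa (-0.27), the ER lectin Erlec1 (-0.17) and the first enzyme of serine synthesis Phgdh (-0.15). The ATF4 targets were therefore found on both sides, with 11 of 22 tested genes of that list above 0 (50%, against 48.7% of all genes). Atf3 was highest in PBS replicate 3, at 14.0 CPM, the library with the highest sum of immediate early genes, and the part of tissue handling in its values was not tested.

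**Figure D5:**
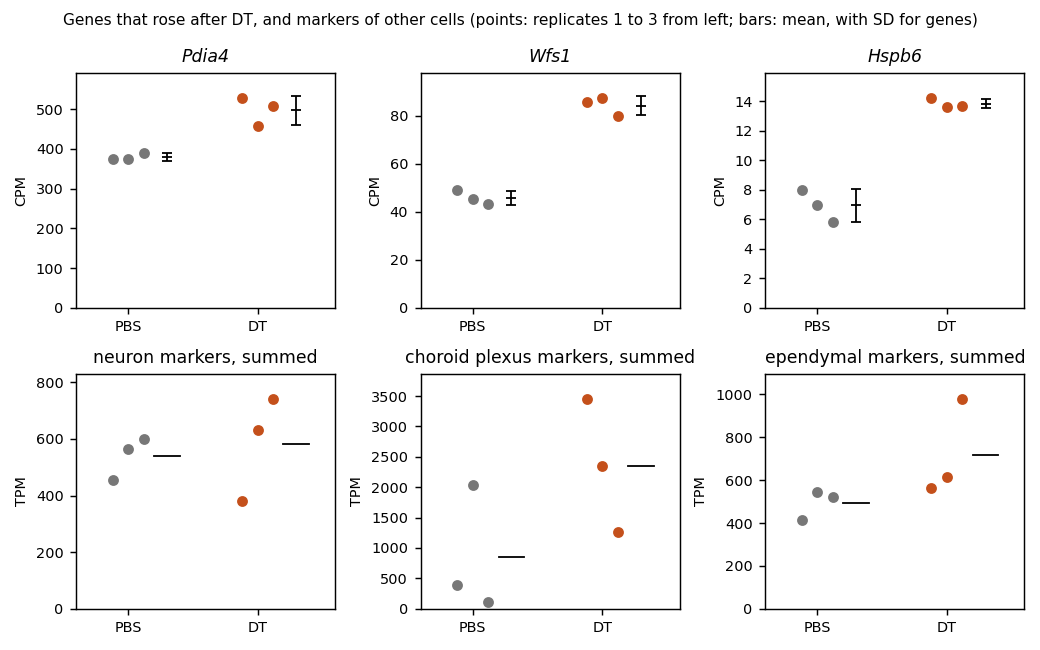
Top, CPM in each library of the 3 genes of these pathways that passed the threshold in limma, Pdia4, Wfs1 and Hspb6, with mean and SD; bottom, summed TPM of neuron, choroid plexus and ependymal markers in the same libraries, with the mean. For each of the 3 genes all DT libraries (orange) are above all PBS libraries (grey), as they are for the ependymal sum. The neuron and choroid plexus sums overlap between the groups. Border-associated macrophage markers, not drawn, summed to 12.9 to 24.6 TPM after PBS and 57.5 to 77.6 TPM after DT.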

How the data were processed

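The authors trimmed reads with Trim Galore 0.5.0, mapped them to mm10 with HISAT2 2.1.0 using strand, removed ribosomal reads with bedtools 2.25.0 and quantified genes with StringTie 1.3.5. The values they deposited are a CPM signal scaled by TMM factors and TPM. The log2 fold change, p-value and q-value columns the authors deposited hold their own edgeR comparison and were not used. Whole reads were recovered from the CPM steps (99.9986% of values within 0.00051 CPM) and used for count tests.

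Log2(CPM + 0.1) of genes with a mean of at least 0.5 CPM was fitted in R 4.3.3 by limma 3.58.1 (two-sided, the variance trended on the level), with Benjamini-Hochberg adjustment over all genes tested. The smallest p-value that an exact permutation test of 3 against 3 allows is 0.1, so none is given. On the recovered reads, edgeR 4.0.16 called 87 genes higher and 24 lower, and DESeq2 1.42.0 called 227 and 98.

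The members and lists were chosen with earlier results of these data known. Values per library and the test are given for members past the threshold, without overlap or with the smallest p-value of their class, and Xbp1, Ddit3, Asns, Hspa1a and Hspe1 were added after their values were seen. Of the other lists, genes past the threshold and, in each direction, the 5 smallest p-values are named. Whether replicate numbers pair the libraries is not given by the labels. Correlations of deviations between same-numbered libraries (0.216, -0.121 and 0.202 over 11792 genes) were not compared with those of other pairs, so they do not settle it. Positions of genes are those of GENCODE on mm10, and those of promoters and elements follow the RefSeq starts of GRCm38.p6. The limma fit was tested on simulated counts, where recovery was required only for changes larger than that of any member.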

Additional observations from a re-analysis of the deposited data

How the results depend on the processing

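In the 18 alternatives, 27 of the 40 tested members kept the direction of their log2 fold change and 13 changed it in at least 1. These were Ddit3 (in 7), Chac1 (5), Ern1 (4), Hsp90b1 and Calr (3 each), Canx, Hyou1 and Hspb8 (2 each), and Pdia3, Dnajb9, Dnajb1, Asns and Ppp1r15a (1 each). Ppp1r15a was at 0.01266 without PBS replicate 3 against -0.07 (range with 1 library left out -0.15 to 0.01). Of the tested members, 39 passed the threshold in none of the fits and 0 were called lower in any. The count of members called higher was 0 in place of 1 without the filter, without the variance trend, with edgeR and with each library left out (0 to 0), so it rests on every library; fewer libraries were fitted there, and the cause of the other losses was not tested. Other pathway genes called higher numbered 1 in place of 2 without the variance trend, and 1 to 2 with 1 library left out. Among all genes, 84 were higher and 24 lower; these counts were 35 and 11 without the variance trend, 227 and 98 with DESeq2, and 39 to 72 and 9 to 20 with 1 library left out. With the replicate block, 1 member, 2 other pathway genes, and 79 higher and 30 lower genes overall were called, and no other call changed. With 1 library left out, the median log2 fold change ranged from 0.03 to 0.11 for all members, 0.04 to 0.13 for ER chaperones, -0.15 to -0.02 for ER-associated degradation, 0.05 to 0.17 for the sensors and their factors, -0.24 to 0.13 for ATF4 and CHOP targets, -0.03 to 0.09 for the cytosolic class, 0.08 to 0.09 for the mitochondrial chaperonins and 0.03 to 0.16 for the small heat shock proteins. With 3 pools per group, changes under 1.5-fold in members with few reads, such as Chac1, Trib3 and Asns, were not detectable.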
